A study of Mus musculus with 4 samples.

Results

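Arterial-type endothelial cells were 134 of 12487 cell barcodes in 4 single-cell libraries of adult mouse brain. They were 134 of the 10067 barcodes that had at least 400 detected genes and at most 20% of their unique molecular identifiers (UMIs, 1 per captured transcript) from mitochondrial genes, and 134 of the 1755 that passed an endothelial gate. That gate asked for at least 3 detected of the 8 genes Cldn5, Flt1, Ly6c1, Pecam1, Slco1a4, Itm2a, Cdh5 and Ly6a, and for at most 1 of the 8 genes Kcnj8, Abcc9, Vtn, Rgs5, Higd1b, Tmem119, Mog and Aqp4, which mark other brain cells. A cell was arterial-type when at least 2 of Gkn3, Sema3g, Igfbp3, Edn1 and Slc26a10 were detected and more of these than of Slc38a5, Car4, Ndnf, Slc7a1 and Hmcn1. The gate therefore used 26 genes in all, and their values are described below without a test.

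Arteries carry blood into the brain, and their endothelial lining sits on elastic tissue ringed by smooth muscle, under faster and more pulsatile flow than the lining of capillaries and veins. In developing vessels arterial identity is promoted by the transcription factor Sox17 and by Notch signalling, in which Delta-like and Jagged ligands on one cell activate Notch receptors on the next and switch on target genes of the Hey and Hes families. The blood-brain barrier, by contrast, exchanges nutrients mainly across the capillary bed, where transporters for glucose, amino acids, monocarboxylates and iron are concentrated.

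Each library came from the whole brain of 1 male C57BL/6J mouse at an age of 90 days (P90), dissociated enzymatically at body temperature, with the meninges taken off as far as possible and no sorting of cells. In 2 animals no inhibitors were used. In the other 2, the transcription inhibitors actinomycin D and triptolide and the translation inhibitor anisomycin were present, so that genes induced by the procedure itself could be separated from those of the living brain. All 4 carried the same batch label. The values below are listed in the order no-inhibitor animals 1 and 2, then inhibitor animals 1 and 2, and levels are UMIs per 1000000 UMIs (CPM) of the cells summed within an animal.

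The arterial-type cells numbered 28, 45, 20 and 41 in the 4 animals, and their summed UMIs were 72923, 145341, 72079 and 121133. The other endothelial-gated cells were 946 capillary-venous cells, for which the 2 lists of subtype markers were exchanged, and 675 cells that met neither rule. Arterial-type cells had a median of 2585, 2592, 3376.5 and 2629 UMIs against 1869, 2215, 2230 and 1884 in capillary-venous cells (2796 ± 388 against 2050 ± 200, SD, n = 4 animals). They were the deeper cells in every animal. The gates count detected markers, and detection depends on a cell's UMIs, so depth was not independent of the choice of cells. Members with 2 arterial markers had a median of 2056 UMIs and those with 3 or more had 3424. The exact paired permutation test gave its smallest possible p of 0.125 (two-sided), and it cannot tell depth apart from that choice. The libraries held 5134359 to 7529804 UMIs each and shared 67 barcode sequences, 1 of them on an arterial-type cell. A doublet score marked 206 barcodes, 3 of them arterial-type. Haemoglobin and other erythrocyte transcripts came almost wholly from 4 arterial-type barcodes (1, 2, 0 and 1 in the 4 animals), which held 6114, 6872, 0 and 1049 of the 6138, 6983, 3 and 1076 such UMIs in the arterial-type sums.

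Most members carried the minimum of arterial markers: 71 of 134 had 2 of the 5 detected, 49 had 3, 13 had 4 and 1 had all 5. Semaphorin Sema3g and Edn1, the precursor of the vasoconstrictor endothelin-1, were the most frequent pair, found together in 61 cells. Gkn3, a secreted protein of the gastrokine family, was found with Sema3g in 45 cells and with Edn1 in 41. Without Edn1, 41 cells (11, 14, 3 and 13 in the 4 animals) would not have reached 2 markers. Others would have lost their majority of arterial markers. With Edn1 left out of the gate, 14, 28, 15 and 24 cells were still arterial-type. The median member had all 8 endothelial genes of the gate, and 57 members had 1 gene of another cell type, which was Rgs5, a pericyte and smooth-muscle gene, in 37 of them.

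Among the markers that chose the cells, Gkn3 stood at 631, 922, 361 and 859 CPM in arterial-type cells and at 0 to 13.2 in capillary-venous cells. Sema3g was the most even of the 5, at 357, 358, 347 and 330.2 CPM, against 18.4 to 29.6. Edn1 stood at 494, 385, 472 and 569.6 CPM and was also present in capillary-venous cells, at 101 to 138. Igfbp3, which binds insulin-like growth factors, was at 96, 110.1, 222 and 189.9 CPM, and Slc26a10, of an anion transporter family, at 206, 172, 111 and 223. In mouse build GRCm38 the genes lie at chr6:87383256-87388935 (Gkn3), chr14:31217860-31230352 (Sema3g), chr13:42301476-42307990 (Edn1), chr11:7206086-7213923 (Igfbp3) and chr10:127171393-127180645 (Slc26a10). Gkn3 and Igfbp3 varied most between animals relative to their means, and inhibitor animal 1 was lowest for Gkn3 and highest for Igfbp3.

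Gkn3 is shown with the sequence upstream of its start because it is a defining marker that capillary-venous cells nearly lacked. The window is the 250 bases before the start from the RefSeq annotation (mouse build GRCm38.p6, minus strand, chr6:87388936-87389185), written 5′ to 3′, with a match to the SOX-family core ACAAAG or its reverse CTTTGT, or to the RBPJ (Notch effector) core TGGGAA or its reverse TTCCCA, in capitals. It held 1 SOX core, and a match is a description of the letters only.
Gkn3: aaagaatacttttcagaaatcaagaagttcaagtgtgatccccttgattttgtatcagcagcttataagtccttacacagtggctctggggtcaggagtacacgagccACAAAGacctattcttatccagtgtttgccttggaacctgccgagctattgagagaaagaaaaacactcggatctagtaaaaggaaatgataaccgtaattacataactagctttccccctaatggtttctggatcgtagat

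A check of the label outside the gate was Sox17, a transcription factor of arterial endothelium. The gate did not use Sox17, but the gene was chosen with earlier results of these data known. It is therefore not independent evidence for the label. Its level was 823, 722, 610.4 and 809 CPM in arterial-type cells and 437, 447, 456 and 397 in capillary-venous cells, and the 2 sets did not overlap. The log2 difference was 0.77 ± 0.11 (SE; edgeR adjusted p = 1.24e-06), and every ± beside a log2 difference here is a standard error (SE). Sox17 was detected in 74.6% of arterial-type, 57.0% of capillary-venous and 0.743% of microglia-gated cells (median 2732.5, 2030.5 and 1404 UMIs per cell), and in 52.4%, 36.5% and 0.556% after each cell was thinned to 1000 UMIs. Sox17 was thus a gene of both endothelial groups that was higher in the arterial-type cells, not a gene found in them alone.

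Every gene outside the gate was then compared between the arterial-type and capillary-venous cells of the same animals, which asks what else the arterial-type cells share. Of 4256 genes that passed the filter on low counts, 194 were higher (4.56%) and 129 were lower (3.03%) in arterial-type cells, at an edgeR adjusted p under 0.05 and a log2 difference over 0.58. The difference had the same sign in all 4 animals for 185 of the 194 and for 122 of the 129. Among the higher genes 113 were beyond 2-fold and 26 beyond 4-fold, and among the lower genes 67 and 9. The median over all genes tested was -0.00 on the log2 scale. DESeq2 called fewer genes, 96 higher and 37 lower.

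The arterial list of 32 genes outside the gate moved mostly one way: 25 passed the filter, 18 of them were higher, where 4.56% of all genes tested were, 1 was lower and the median log2 difference was 1.12. Bmx, a cytoplasmic tyrosine kinase of the Tec family, stood at 123, 117, 166 and 124 CPM in arterial-type and 7.9, 1.41, 3.78 and 11.6 in capillary-venous cells, so that the lowest arterial-type value was well above the highest capillary-venous one. The log2 difference of Bmx was 4.30 ± 0.39 (SE; edgeR adjusted p = 1.15e-10). Its 53 UMIs were spread over 42 of the 134 cells, and it was detected in 31.3% of arterial-type, 1.37% of capillary-venous and 0.0323% of microglia-gated cells (15.1%, 0.228% and 0.0371% thinned).

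Stmn2, a microtubule-binding stathmin best known from neurons, was at 288, 303, 375 and 297 CPM against 26.3, 19.8, 15.1 and 20.6, a log2 difference of 3.92 ± 0.24 (SE; edgeR adjusted p = 1.34e-15). The 8 neuronal markers together stood at 13.9 to 82.3 CPM in arterial-type and 50.9 to 144 in capillary-venous cells, with Meg3 and Rbfox3 at 0 in the former, and their part in the Stmn2 result was not tested. Alpl, the tissue-nonspecific alkaline phosphatase, was at 261, 172, 277 and 314 CPM against 31.6, 24, 36 and 25.8, a log2 difference of 3.12 ± 0.24 (SE; edgeR adjusted p = 8.09e-13). In none of these genes did an arterial-type sum fall within the capillary-venous range, and the calls held without any 1 of the animals. Their spread over cells was wide as well, with Stmn2 detected in 63 cells and Alpl in 56.

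The upstream windows of Bmx and Alpl are shown as examples from the 12 highest genes, and both windows border the annotated gene start. They lie at chrX:164258194-164258443 and chr4:137796385-137796634 (RefSeq, GRCm38.p6, minus strand), with the capitals marking the same cores as for Gkn3.
Bmx: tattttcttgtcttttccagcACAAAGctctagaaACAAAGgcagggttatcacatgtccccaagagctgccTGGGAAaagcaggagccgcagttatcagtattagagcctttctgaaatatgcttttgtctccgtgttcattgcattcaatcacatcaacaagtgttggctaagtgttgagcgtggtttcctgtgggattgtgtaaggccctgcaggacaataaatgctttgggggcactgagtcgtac
Alpl: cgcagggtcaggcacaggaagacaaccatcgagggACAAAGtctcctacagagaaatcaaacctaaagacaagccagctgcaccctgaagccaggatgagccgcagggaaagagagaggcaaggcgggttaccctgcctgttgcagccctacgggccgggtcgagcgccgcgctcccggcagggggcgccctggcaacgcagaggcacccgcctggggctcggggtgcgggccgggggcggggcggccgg
In the windows shown, Bmx held 2 SOX cores and 1 RBPJ core, and Alpl held 1 SOX core. A second Alpl window, at chr4:137766476-137766725, held 2 SOX cores. The Egfl8 window, which also borders its gene start and is not shown, held 1 SOX core. RefSeq windows, 11 in all, were found for 8 of 13 genes looked up (the 12 highest and Gkn3). In 6 of these genes at least 1 window held either core. That count is per gene and over both cores, so it is not comparable with the shares below, which are per window and core. Across the table, the SOX core was in 16.5% of 32851 windows, in 11.9% of those of the genes tested, in 15.1% of those of the genes higher in arterial-type cells and in 10.1% of those of the lower ones. The RBPJ core was in 21.6%, 19.0%, 18.0% and 25.6%. None of these shares was tested.

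**Figure D1:**
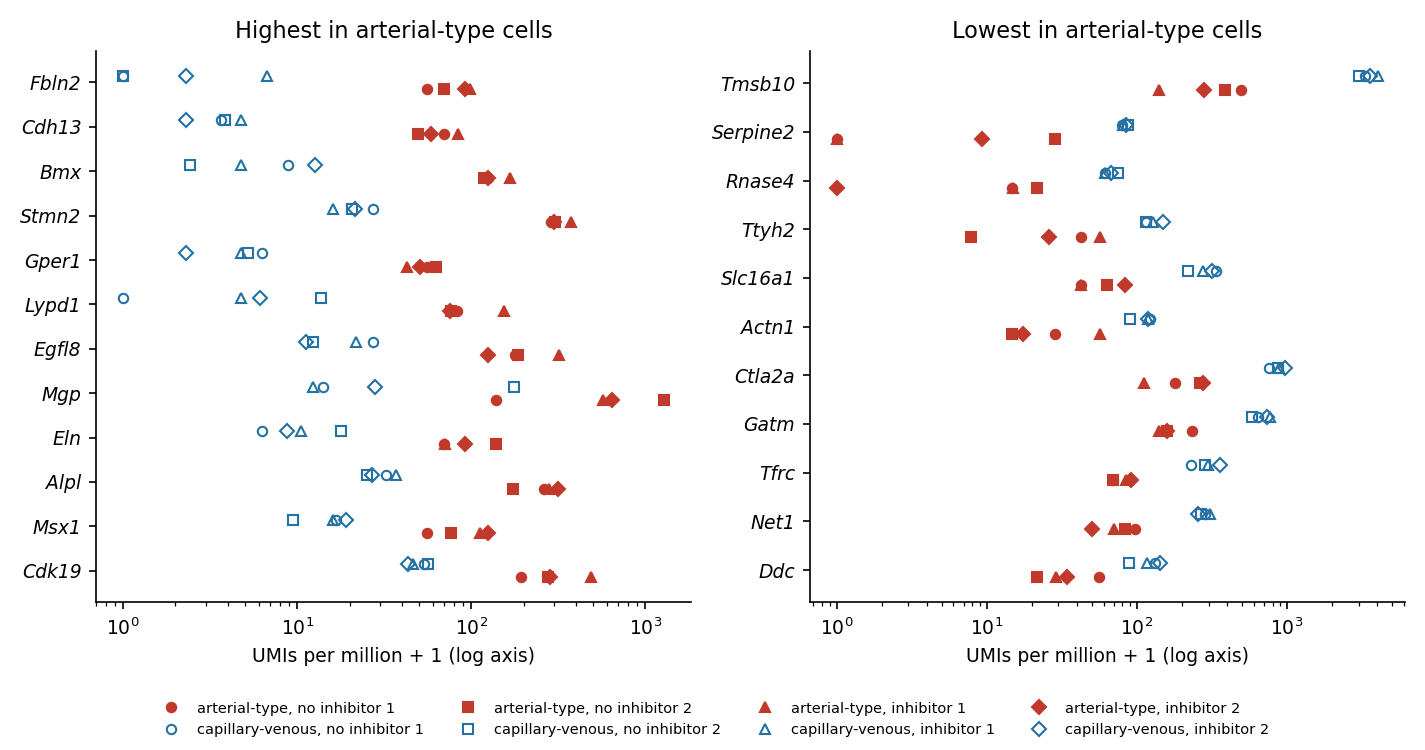
Levels of the 12 genes highest in and of 11 of the 12 genes lowest in arterial-type against capillary-venous cells, in CPM plus 1 on a log axis, with filled red symbols for arterial-type and open blue symbols for capillary-venous sums and 1 symbol shape per animal. The 2 colours separate in every gene except that a single capillary-venous value of Mgp, 175 CPM, lies above its lowest arterial-type value.

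Part of the Notch pathway was higher, namely the ligands Jag1 and Jag2, the receptor Notch1 and the target Hey1. These 4 are also among the 18 higher genes of the arterial list. Of the 16 genes listed, 10 were tested, 4 were higher and 1 was lower, where 4.56% and 3.03% of all genes tested were. The median log2 difference was 0.77, and DESeq2 called 2 of the list higher and 0 lower. Among those not called were the ligand Dll4 and the receptor Notch4. The target Hey1, a transcriptional repressor, stood at 329, 220.2, 361 and 314 CPM against 73.7, 84.8, 56.8 and 70.9, a log2 difference of 2.00 ± 0.21 (SE; edgeR adjusted p = 2.1e-09). The receptor Notch1 was at 192, 296, 291 and 289 CPM against 108, 144, 112 and 140.5, a log2 difference of 1.05 ± 0.17 (SE; edgeR adjusted p = 2.61e-05). For both genes the lowest arterial-type value was above the highest capillary-venous one.

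The ligand Jag1 stood at 123, 82.6, 166 and 165 CPM against 55.3, 59.4, 56.8 and 61.9 (log2 difference 1.12 ± 0.26, edgeR adjusted p = 0.00228), and Jag2 at 137, 172, 264 and 223 against 118, 120.2, 90.8 and 95.4 (log2 difference 0.88 ± 0.21, edgeR adjusted p = 0.00458). Both were above the capillary-venous sum in every animal, but the calls were lost without inhibitor animal 2 (adjusted p = 0.0630 for Jag1 and 0.0933 for Jag2) and under DESeq2, and for Jag2 also without inhibitor animal 1 (0.0529). Dll4, the other main endothelial ligand, was at 13.7, 68.8, 83.2 and 99.1 CPM against 55.3, 33.9, 26.5 and 37.4 and did not pass the test (log2 difference 0.91 ± 0.36, edgeR adjusted p = 0.121). No-inhibitor animal 1 had the lowest Dll4 value, and without it the log2 difference was 1.26 with an adjusted p of 0.0247. The target Hes1 was lower, at 219, 138, 97.1 and 215 against 295, 259, 208 and 289 (log2 difference -0.68 ± 0.18, edgeR adjusted p = 0.00971), and its call was lost without no-inhibitor animal 2 (0.111), under DESeq2 (0.262), with Edn1 left out of the gate (0.116) and with the stricter gate (0.0609).

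Efnb2, the membrane ligand ephrin-B2 that marks arteries against veins in the embryo, was at 82.3, 96.3, 55.5 and 41.3 CPM against 15.8, 11.3, 15.1 and 33.5. The difference was 1.78 ± 0.40 (SE; edgeR adjusted p = 0.0022), and the call was lost without no-inhibitor animal 2 (adjusted p = 0.138). Unc5b, a netrin receptor of arterial and sprouting endothelium, was at 68.6, 103, 277 and 149 against 31.6, 19.8, 28.4 and 46.4 (log2 difference 2.16 ± 0.30, edgeR adjusted p = 1.46e-06), with inhibitor animal 1 highest. Of the 11 guidance and junction genes tested, these 2 were higher and Sema6a was lower, at 54.9, 13.8, 27.7 and 49.5 against 118, 83.4, 108 and 143 (log2 difference -1.72 ± 0.33, edgeR adjusted p = 0.000323). The median of that list was 0.03, and of all genes tested 4.56% were higher and 3.03% lower. Efnb2 and Unc5b are also among the higher genes of the arterial list. Of the arterial list, 7 genes were too low for the filter: the connexin Gja4 stood at 54.9, 20.6, 69.4 and 49.5 CPM against 0 to 3.78, the lymphangiogenic factor Vegfc at 151, 20.6, 139 and 90.8 against 0 to 7.9, and Gja5 had 0 UMIs in all 8 sums. The others left untested were Fbln5, a fibulin, at 27.4, 124, 27.7 and 57.8 CPM against 0 to 1.89, the secreted Cytl1 at 0, 96.3, 0 and 57.8 against 0 in every animal, the Notch target Hey2 at 13.7, 0, 13.9 and 0 against 0 to 2.83, and the calcium-binding S100a6 at 27.4, 61.9, 27.7 and 33 against 5.65 to 10.5.

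Matrix and elastic-fibre genes formed the next group: of 13 tested, 5 were higher and 1 was lower, where 4.56% and 3.03% of all genes tested were. The median log2 difference was 0.58. Fbln2, Eln, Mgp and Ltbp4 are also among the higher genes of the arterial list, and Timp3 is not in that list. Fbln2, a fibulin of elastic fibres, stood at 54.9, 68.8, 97.1 and 90.8 CPM in arterial-type and at 0, 0, 5.68 and 1.29 in capillary-venous cells, a log2 difference of 5.30 ± 0.50 (SE; edgeR adjusted p = 3.31e-10), the largest of the 12 highest genes. Eln, the precursor of elastin, was at 68.6, 138, 69.4 and 90.8 against 5.26, 17, 9.46 and 7.73 (log2 difference 3.14 ± 0.35, edgeR adjusted p = 1.55e-08). The metalloproteinase inhibitor Timp3 was at 1508, 1734, 2386 and 1833 against 521, 574, 462 and 470.4 (log2 difference 1.85 ± 0.10, edgeR adjusted p = 4.87e-16). The TGF-beta binding protein Ltbp4 was at 494, 749.96, 971 and 726 against 329, 401, 397 and 403 (log2 difference 0.91 ± 0.11, edgeR adjusted p = 4.5e-08), and Sparcl1, a matrix glycoprotein, was the lower one, at 617, 688, 541 and 627 against 853, 1081, 956 and 878 (log2 difference -0.62 ± 0.10, edgeR adjusted p = 2.24e-05). The Sparcl1 difference was under the size asked for without inhibitor animal 1 (-0.56) and against all other endothelial-gated cells (-0.55). In thinned cells neither gene was called (edgeR adjusted p = 0.0891 for Ltbp4 and 0.135 for Sparcl1).

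Mgp, matrix Gla protein, an inhibitor of calcification, was the least even of the 12 highest genes. It stood at 137, 1279.8, 569 and 644 CPM in arterial-type and 13.2, 175, 11.4 and 27.1 in capillary-venous cells, and it was higher in arterial-type cells within each animal although the 2 sets overlapped. Its log2 difference was 3.57 ± 0.48 (SE; edgeR adjusted p = 0.0295). A single cell held 83 of the 315 Mgp UMIs (26.3%), and 44 cells held at least 1. Against all other endothelial-gated cells, which include those of neither kind, the difference of Mgp was 0.81 with an adjusted p of 0.283. The call was also lost without no-inhibitor animal 1 (0.0948), without the animal as a block (0.0867), with Edn1 left out of the gate (0.0925), without doublet-scored barcodes (0.0503) and at a mitochondrial limit of 10% (0.0564).

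Smooth-muscle markers moved with these genes. The 10 markers together stood at 425, 413, 319 and 157 CPM in arterial-type sums and at 47.3 to 58.0 in capillary-venous sums, with Cnn1 at 0, and Acta2, Tagln and Myh11 were each found in 6 of 134 arterial-type cells. The 1 marker that passed the filter, the myosin light-chain kinase Mylk, was at 68.6, 117, 139 and 66 CPM against 13.2, 11.3, 18.9 and 21.9 (log2 difference 2.52 ± 0.35, edgeR adjusted p = 1.73e-06) and was found in 27 cells. The 10 pericyte markers stood at 343 to 930 CPM against 166 to 237, of which Rgs5, a gate gene, made up a mean of 527, while Abcc9 was at 0. The 8 fibroblast markers stood at 74.3 to 166 against 100.03 to 209 CPM, with Col1a1, Lum and Slc6a13 at 0. Their part in the matrix results was not tested.

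The remaining genes among the 12 highest were receptors, adhesion and regulatory genes. Cdh13, a cadherin anchored to the membrane by lipid, stood at 68.6, 48.2, 83.2 and 57.8 CPM against 2.63, 2.83, 3.78 and 1.29 (log2 difference 4.42 ± 0.46, edgeR adjusted p = 3.3e-09). Gper1, a membrane oestrogen receptor, was at 54.9, 61.9, 41.6 and 49.5 against 5.26, 4.24, 3.78 and 1.29 (log2 difference 3.81 ± 0.46, edgeR adjusted p = 7.74e-08), and Lypd1, of the Ly6 family, at 82.3, 75.7, 153 and 74.3 against 0, 12.7, 3.78 and 5.16 (log2 difference 3.76 ± 0.44, edgeR adjusted p = 3.49e-08). These 3 genes were scarce in capillary-venous cells in all 4 animals. Egfl8, a secreted protein with EGF-like domains, was at 178, 186, 319 and 124 against 26.3, 11.3, 20.8 and 10.3 (log2 difference 3.59 ± 0.29, edgeR adjusted p = 4.37e-12). The homeobox gene Msx1 was at 54.9, 75.7, 111 and 124 against 15.8, 8.48, 15.1 and 18 (log2 difference 2.69 ± 0.35, edgeR adjusted p = 4.06e-07), and Cdk19, of the Mediator kinase module, at 192, 275, 486 and 281 against 52.6, 55.1, 45.4 and 42.5 (log2 difference 2.61 ± 0.22, edgeR adjusted p = 1.51e-11). Inhibitor animal 1 was the highest of the 4 for Lypd1, Egfl8 and Cdk19, and the values of the other 3 animals were still above every capillary-venous value.

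Further members of the arterial list were genes with smaller differences, chosen after their values were seen. Tm4sf1, a tetraspanin-like membrane protein, was at 1303, 1727, 1249 and 1593 CPM against 442, 389, 458 and 388 (log2 difference 1.82 ± 0.10, edgeR adjusted p = 4.87e-16). It was detected in 88.1% of arterial-type, 53.5% of capillary-venous and 1.71% of microglia-gated cells (69.8% and 31.5% of the endothelial groups after thinning). Crip1, a LIM-domain protein, was at 1467, 1321, 1651 and 1511 against 629, 670.1, 751 and 648 (log2 difference 1.12 ± 0.09, edgeR adjusted p = 2.74e-12), and the chaperone Clu at 302, 378, 153 and 157 against 155, 179.5, 81.4 and 92.8 (log2 difference 0.95 ± 0.18, edgeR adjusted p = 0.000193), which was lost without the animal as a block (0.321) and stood at -0.12 (0.765) against all other endothelial-gated cells. The 6 tested members of the list that were not called were Dll4, Notch4, Ptprr, Htra1, Tsc22d1 and Cd34, of which Cd34, a sialomucin of endothelium, stood at 645, 509, 555 and 569.6 against 621, 567, 653 and 599 (log2 difference -0.12 ± 0.10, edgeR adjusted p = 0.572). Nrp1, a co-receptor for VEGF and semaphorins, was the 1 called lower, at 68.6, 82.6, 83.2 and 49.5 against 150.05, 117, 129 and 148 (log2 difference -0.94 ± 0.27, edgeR adjusted p = 0.0166), and its call was lost without no-inhibitor animal 1 (0.0512), without inhibitor animal 2 (0.202), under DESeq2 (0.279), with Edn1 left out of the gate (0.283), with the stricter gate (0.0625) and against all other endothelial-gated cells (0.0568).

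The list of BMP and TGF-beta genes was divided, with 3 of 13 tested higher and 2 lower, where 4.56% and 3.03% of all genes tested were. Its median was 0.24. Hes1, also in the Notch list, was among the lower ones. The inhibitory Smad6 stood at 68.6, 82.6, 236 and 74.3 CPM against 18.4, 21.2, 28.4 and 33.5 (log2 difference 2.01 ± 0.33, edgeR adjusted p = 2.79e-05), with inhibitor animal 1 far above the other 3. The ligand Tgfb2 was at 109.7, 55, 153 and 189.9 against 44.8, 38.2, 51.1 and 61.9 (log2 difference 1.30 ± 0.27, edgeR adjusted p = 0.000711) and the receptor Tgfbr2 at 247, 234, 305 and 363 against 168, 172, 167 and 174 (log2 difference 0.73 ± 0.17, edgeR adjusted p = 0.0022). The calls of Tgfb2 and Tgfbr2 were lost without inhibitor animal 2 (0.0630 and 0.0926). The target Id1, an abundant inhibitor of basic helix-loop-helix factors, did not pass the test, at 1851, 1851, 1484 and 1816 against 1632, 1589, 1684 and 1835 (log2 difference 0.04 ± 0.10, edgeR adjusted p = 0.88).

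Genes that respond to flow or set vessel tone were called in 1 case for each list. Of 14 flow-responsive genes and Krüppel-like factors tested, 1 was higher, where 4.56% of all genes tested were, 0 were lower and the median log2 difference was 0.19. Klf2 was at 3373, 2449, 3316 and 2823 CPM against 2956, 2179.9, 3139 and 2809 (log2 difference 0.10 ± 0.09, edgeR adjusted p = 0.632), and Klf4 at 768, 771, 1013 and 1106 against 719, 691, 744 and 826 (log2 difference 0.27 ± 0.09, edgeR adjusted p = 0.0608). Neither passed the test, and the Klf2 ranges overlapped. The called gene was Heg1, a receptor at endothelial junctions, at 425, 502, 597 and 709.96 against 337, 334, 318 and 389 (log2 difference 0.68 ± 0.12, edgeR adjusted p = 5.69e-05). Nos3, the endothelial nitric oxide synthase, was at 192, 193, 166 and 231 against 174, 157, 167 and 173 (log2 difference 0.24 ± 0.18, edgeR adjusted p = 0.514), and of 6 vasoactive genes tested only Ddah2, of the dimethylarginine hydrolase family, was called (log2 difference 0.83 ± 0.26, edgeR adjusted p = 0.0322), a call lost under DESeq2 and without either no-inhibitor animal (0.119 without animal 1 and 0.385 without animal 2).

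**Figure D2:**
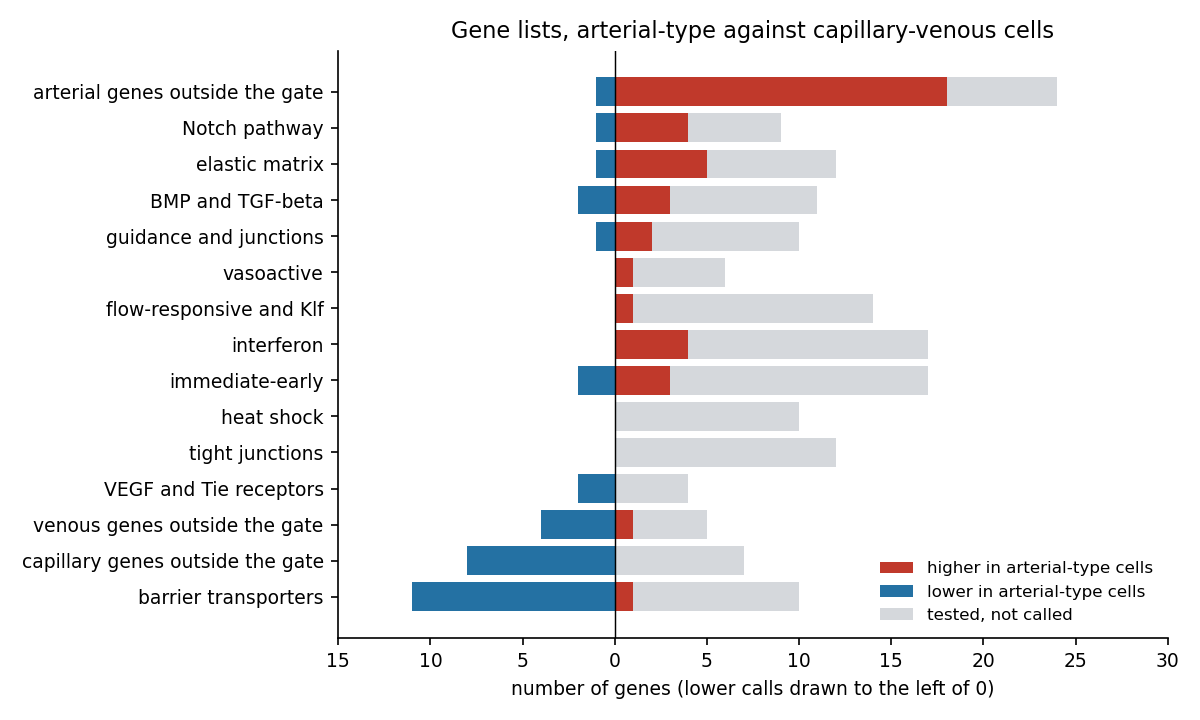
Number of genes of each list that were higher (red), lower (blue, drawn to the left of 0) or tested and not called (grey) in arterial-type against capillary-venous cells. The arterial list outside the gate has 18 higher and 1 lower of 25 tested, and the barrier transporters have 1 higher and 11 lower of 21.

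Transporters of the blood-brain barrier were the list with the most genes lower in arterial-type cells: 11 of 21 tested were lower, where 3.03% of all genes tested were, 1 was higher and the median log2 difference was -0.70. Slc16a1, the monocarboxylate transporter for lactate and ketones, stood at 41.1, 61.9, 41.6 and 82.6 CPM in arterial-type and 337, 216, 276 and 317 in capillary-venous cells, a log2 difference of -2.21 ± 0.23 (SE; edgeR adjusted p = 4.27e-09). Tfrc, the transferrin receptor that brings in iron, was at 68.6, 68.8, 83.2 and 90.8 against 229, 284, 295 and 354 (log2 difference -1.95 ± 0.21, edgeR adjusted p = 6.81e-09). The large amino acid transporter was lower in both chains, with Slc7a5 at 370.3, 413, 166 and 446 against 1058, 910.4, 1016 and 934 (log2 difference -1.43 ± 0.15, edgeR adjusted p = 2.31e-06) and Slc3a2 at 343, 330.3, 375 and 363 against 708, 819.9, 749 and 657 (log2 difference -1.08 ± 0.11, edgeR adjusted p = 2.41e-09). All 4 genes were lower in every animal with no overlap.

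Slc16a1 was detected in 14.9% of arterial-type, 40.1% of capillary-venous and 1.42% of microglia-gated cells, although the arterial-type cells were the deeper ones (5.56% and 21.5% of the endothelial groups after thinning). Tfrc was detected in 14.2%, 44.6% and 1.32% (8.73% and 23.2% thinned). The metal transporter Slc39a8 stood at 27.4, 61.9, 13.9 and 33 CPM against 139.5, 109, 168 and 109.6 (log2 difference -1.71 ± 0.33, edgeR adjusted p = 0.000323), and the efflux pump Abcg2 at 658, 585, 555 and 438 against 916, 879, 993 and 803 (log2 difference -0.70 ± 0.10, edgeR adjusted p = 4.01e-06). Against all other endothelial-gated cells the Abcg2 difference was under the size asked for (-0.56). Thinned cells gave -0.25 for Abcg2 (edgeR adjusted p = 0.678). Not every barrier transporter was lower. The taurine transporter Slc6a6 was higher, at 1673, 1913, 2331 and 2254 against 1066, 1072, 1198 and 1235 (log2 difference 0.82 ± 0.09, edgeR adjusted p = 1.27e-08). Slc2a1, the glucose transporter, was at 2414, 2332, 2275 and 2699.5 against 1909, 2169, 2025 and 1779 and its difference of 0.29 ± 0.10 (SE; edgeR adjusted p = 0.0483) was under the size asked for, and the lipid transporter Mfsd2a was at 219, 206, 236 and 223 against 261, 232, 259 and 298 (log2 difference -0.27 ± 0.16, edgeR adjusted p = 0.369).

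The capillary list of genes outside the gate had 8 of 15 tested lower, where 3.03% of all genes tested were, and none higher. Its median was -0.61, and part of the list is shared with the transporters. The VEGF receptor Kdr was at 123, 179, 139 and 289 CPM against 316, 216, 337 and 358 (log2 difference -0.65 ± 0.18, edgeR adjusted p = 0.0128), and its call was lost without no-inhibitor animal 1 (0.0944), without inhibitor animal 1 (0.103), under DESeq2 (0.199) and against all other endothelial-gated cells (0.144). Of the 6 VEGF and Tie genes tested, Kdr and Nrp1 were the 2 lower and none was higher, and DESeq2 called neither. Of 12 tight-junction and caveolar genes tested none was called by edgeR (5 had an unadjusted p under 0.05) and the median was -0.05.

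The venous list had 9 genes tested, of which 4 were lower and 1 was higher, where 3.03% and 4.56% of all genes tested were. Its median was -0.63. The protease Ctsc was at 13.7, 48.2, 0 and 33 CPM against 60.5, 73.5, 109.7 and 73.5 (log2 difference -1.44 ± 0.40, edgeR adjusted p = 0.0158), a call lost without no-inhibitor animal 1 (0.0609), inhibitor animal 1 (0.125) and inhibitor animal 2 (0.0584). The carrier Slco2b1 was at 13.7, 68.8, 69.4 and 82.6 against 142, 124, 167 and 164 (log2 difference -1.24 ± 0.27, edgeR adjusted p = 0.00172). The cytokine receptor chain Il6st was the higher one, at 151, 110.1, 153 and 124 against 71.1, 73.5, 88.9 and 78.6 (log2 difference 0.72 ± 0.24, edgeR adjusted p = 0.0489), but its call was lost without any 1 of the 4 animals (0.117 to 0.181) and under DESeq2 (0.368). Vwf, von Willebrand factor, was at 123, 241, 97.1 and 140.3 against 105, 171, 117 and 130.2 and Vcam1, an adhesion molecule, at 0, 158, 41.6 and 140.3 against 21.1, 84.8, 24.6 and 95.4, and neither passed the test (log2 difference 0.22 ± 0.21, edgeR adjusted p = 0.624, and 0.62 ± 0.28, adjusted p = 0.184). Nr2f2, the transcription factor of venous identity, and Icam1 were too low for the filter, at 13.7, 41.3, 13.9 and 16.5 against 34.2, 38.2, 32.2 and 51.6 and 13.7, 27.5, 0 and 24.8 against 36.9, 39.6, 34.1 and 86.4 CPM.

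The gene furthest below the capillary-venous cells was Tmsb10, an actin-monomer-binding thymosin. It stood at 494, 385, 139 and 281 CPM in arterial-type and 3309, 3013, 4011 and 3581 in capillary-venous cells, and the 2 sets were several-fold apart in every animal. The log2 difference of Tmsb10 was -3.42 ± 0.40 (SE; edgeR adjusted p = 0.0273), and leaving out no-inhibitor animal 2 or inhibitor animal 2 ended the call (0.122 and 0.0922). It was detected in 40.3% of arterial-type and 89.96% of capillary-venous cells (20.6% and 82.6% after thinning), and in 31.7% of microglia-gated cells (23.97%), so that after thinning its share in arterial-type cells was no higher than in microglia-gated cells.

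The other genes among the lowest had log2 differences of -2.76 to -1.88. Serpine2, a secreted serine protease inhibitor, was at 0, 27.5, 0 and 8.26 CPM against 79, 86.2, 79.5 and 83.8 (log2 difference -2.76 ± 0.49, edgeR adjusted p = 7.55e-05). Ctla2a, a cysteine protease inhibitor, was at 178, 261, 111 and 272 against 758, 865, 882 and 968 (log2 difference -2.01 ± 0.13, edgeR adjusted p = 4e-14), and Gatm, the first enzyme of creatine synthesis, at 233, 158, 139 and 157 against 634, 579.6, 772 and 728 (log2 difference -2.01 ± 0.15, edgeR adjusted p = 3.71e-13). Each was lower in all 4 animals. The lowest genes also included the ribonuclease Rnase4 (-2.44), the chloride-channel family member Ttyh2 (-2.23), the actin crosslinker Actn1 (-2.15), the GTPase exchange factor Net1 (-1.91) and the aromatic amino acid decarboxylase Ddc (-1.88), besides Slc16a1 and Tfrc.

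Immediate-early and interferon-response genes were called in part. Of 19 immediate-early genes tested 3 were higher and 2 lower, where 4.56% and 3.03% of all genes tested were, with a median of 0.06. The higher ones were Plk2, at 343, 193, 222 and 239 CPM against 100.03, 113, 68.1 and 74.8 (log2 difference 1.40 ± 0.21, edgeR adjusted p = 5.03e-06), Gadd45g (log2 difference 1.54 ± 0.25, edgeR adjusted p = 2.56e-05) and Apold1 (log2 difference 1.25 ± 0.22, edgeR adjusted p = 8.7e-05), and the lower ones Dusp6 (log2 difference -1.71 ± 0.36, edgeR adjusted p = 0.00103) and Ier3 (log2 difference -1.07 ± 0.30, edgeR adjusted p = 0.0168). The call of Ier3 was lost without no-inhibitor animal 2 (0.0741), without inhibitor animal 2 (0.0935) and under DESeq2 (0.301). It was also lost with Edn1 left out of the gate (0.145) and with the stricter gate (0.200). The call of Dusp6 was lost under DESeq2 (0.0651). Of 17 interferon-response genes, 4 were higher and none lower, with a median of 0.18, including the antiviral membrane protein Ifitm3 at 2016, 1789, 1651 and 1717 against 1085, 1084, 1343 and 1052 (log2 difference 0.64 ± 0.10, edgeR adjusted p = 7.99e-06), which was under the size asked for without no-inhibitor animal 1 (0.54). The call of Irf7 (0.81) was lost without no-inhibitor animal 1 (0.0701), no-inhibitor animal 2 (0.0519) or inhibitor animal 2 (0.292), and that of Rsad2 (0.92) without no-inhibitor animal 1 (0.0661), no-inhibitor animal 2 (0.212) or inhibitor animal 1 (0.151). None of the 10 heat-shock genes tested was called by edgeR, and none had an unadjusted p under 0.05.

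Cells just inside and just outside the gate were compared as a description. In the 71 members with 2 arterial markers, Bmx was at 128, Stmn2 at 301, Alpl at 197 and Hey1 at 244 CPM, pooled over animals. In the 63 members with 3 or more they were at 130, 318, 285 and 326 CPM (129.7 for Bmx before rounding). In the 414 endothelial-gated cells with 1 arterial marker they were at 20.8, 58.4, 63.3 and 96.9. In the 46 cells with 2 or more arterial markers but as many or more capillary-venous ones they were at 9.93, 109, 84.4 and 119. Sox17 differed less, at 725 and 762 CPM in the members with 2 and with 3 or more markers, and at 561 and 472 CPM in the 2 sets outside. Slc16a1 ran the other way, at 87.0 and 41.8 CPM in the members with 2 and with 3 or more markers, and at 235 and 199 CPM in the 2 sets outside.

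**Figure D3:**
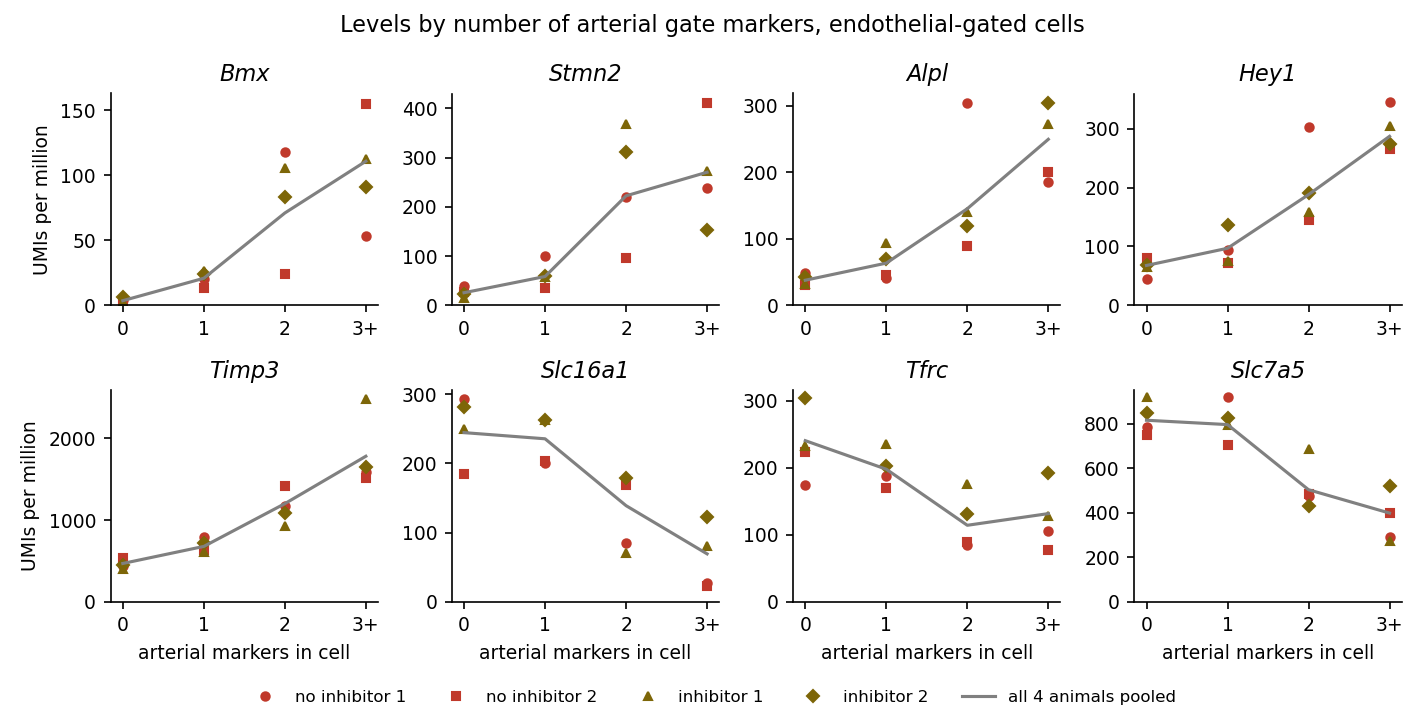
Levels in CPM of 8 genes outside the gate in all 1755 endothelial-gated cells, grouped by the number of arterial gate markers detected (0, 1, 2, or 3 and more, whatever their capillary-venous markers), with 1 symbol per animal and a line for all 4 animals pooled. Bmx climbs from 3.52 to 111 CPM and Slc16a1 goes from 244 to 69.3 CPM along the axis. Sox17 and Mgp are not drawn. Pooled Sox17 went from 356 to 710 CPM, but in no-inhibitor animal 2 it fell from 590 CPM with 1 marker to 427 with 2. Pooled Mgp was at 594 CPM with 0 markers and 554 with 3 and more.

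The next question was whether arterial-type cells took a different share of the endothelial cells when inhibitors were present. They made up 8.64%, 8.67%, 6.25% and 6.93% of endothelial-gated cells, with 95% Wilson intervals of 6.05 to 12.2%, 6.54 to 11.4%, 4.08 to 9.46% and 5.15 to 9.26% that cover counting error only. Both animals without inhibitors were above both with inhibitors (8.66 ± 0.0202% against 6.59 ± 0.478%, SD, n = 2 and 2, a difference of 2.07 percentage points). The exact two-sided permutation test gave p = 0.333, the smallest that 2 animals against 2 allow. The size of the difference varied with how the cells were chosen. With Edn1 left out the shares were 4.32%, 5.39%, 4.69% and 4.05%, a difference of 0.487 points. In cells thinned to 1000 UMIs they were 4.86%, 4.99%, 3.77% and 5.14%, a difference of 0.470 points. The difference was 2.69 points with the stricter gate and 2.07 without doublet-scored barcodes. It was 2.05 without haemoglobin-rich barcodes and 1.13 at a mitochondrial limit of 10%.

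**Figure D4:**
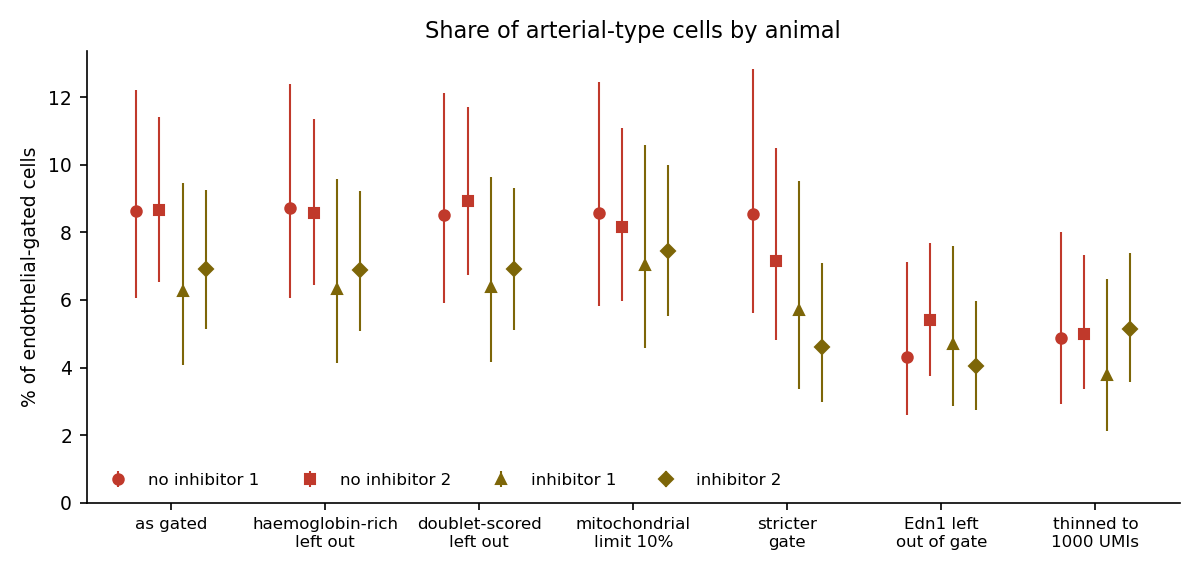
Arterial-type cells as a percentage of endothelial-gated cells in each animal, as gated and under 6 other ways of choosing cells, with 95% Wilson intervals that cover counting error only. As gated, the animals without inhibitors (red) are at 8.64% and 8.67% and those with inhibitors (olive) at 6.25% and 6.93%, and the groups overlap when Edn1 is left out or the cells are thinned.

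The inhibitors' effect on gene expression was then tested within the arterial-type cells, to see which transcripts of these cells differed between dissociation without and with inhibitors. Of 1835 genes tested, 1 was higher without inhibitors (0.0545%) and 0 were lower (0%) by edgeR's quasi-likelihood test, while 113 had an unadjusted p under 0.05 and DESeq2 called 1 gene higher, the beta-globin Hbb-bt, and 0 lower. The called gene was Cst3, the secreted protease inhibitor cystatin C, at 2729, 2559.5, 1609 and 1709 CPM, with both values without inhibitors above both values with them. The log2 difference was 0.80 ± 0.13 (SE; edgeR adjusted p = 0.0265). The UMIs were spread over 130 of 134 cells, and the highest cell held 3.58% of them.

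In capillary-venous cells Cst3 stood at 2427, 3510.2, 2441 and 2723 CPM, the groups overlapped and the log2 difference was 0.28 (edgeR adjusted p = 0.88). The difference between the 2 endothelial groups in the Cst3 effect was 0.55 and was not past the threshold (adjusted p = 1). Cst3 is abundant in microglia and astrocytes, and it was detected in 100% of microglia-gated cells. In the arterial-type sums the 10 microglial markers stood at 590, 433, 180 and 479 CPM and the 10 astrocyte markers at 590, 365, 208 and 462, and their part in the Cst3 result was not tested. The call was lost without no-inhibitor animal 1 (adjusted p = 0.135), without inhibitor animal 1 (0.0542), under DESeq2 (0.130), with a fit that was not robust (0.101), with no filter (0.329), with the replicate number as a block (0.632), with the stricter gate (0.197) and with Edn1 left out of the gate, where the log2 difference was 0.42 (0.721).

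The activation genes of the fixed list were examined 1 by 1. Fos, the immediate-early transcription factor, stood at 178, 124, 0 and 0 CPM, with 0 UMIs in both animals with inhibitors. Against a floor of 3 UMIs per library, the mean without inhibitors of 151 CPM was at least 4.55-fold higher than the 33.2 CPM that this floor allows with them. The edgeR adjusted p was 0.178, and it fell under 0.05 without inhibitor animal 1 (0.000420), without doublet-scored barcodes (0.0359) and with no filter on low counts (1.43e-05). The 31 Fos UMIs lay in 7 cells, 4 of 28, 3 of 45, 0 of 20 and 0 of 41, and 1 cell held 16 of them (51.6%). The 95% Wilson upper limits for the shares of 0 were 16.1% and 8.57%, and after thinning the cells with Fos were 2 of 26, 2 of 42, 0 of 18 and 0 of 40. In microglia-gated cells Fos was detected in 20.7%, 12.7%, 0.447% and 0.339% of cells, and in capillary-venous cells in 1.17%, 1.94%, 0% and 0.932%.

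Junb, its dimer partner, was at 137, 131, 41.6 and 41.3 CPM, both values without inhibitors being above both with them, and its log2 difference of 1.78 ± 0.60 (SE; edgeR adjusted p = 0.533) did not pass the test. In capillary-venous cells Junb was at 60.5, 80.6, 77.6 and 130.2. Jun stood at 233, 206, 333 and 330.2 (log2 difference -0.48 ± 0.28, edgeR adjusted p = 0.789) and the phosphatase Dusp1 at 247, 248, 486 and 281 (log2 difference -0.43 ± 0.30, edgeR adjusted p = 0.833), with the values without inhibitors below those with them, and neither passed the test. Ier2 was at 206, 234, 194 and 248, Klf2 at 3373, 2449, 3316 and 2823 and Klf4 at 768, 771, 1013 and 1106 CPM, with log2 differences of 0.11, 0.06 and -0.34 (adjusted p = 0.988, 0.988 and 0.736). The sign of Klf2 changed without no-inhibitor animal 1 (-0.19) and without inhibitor animal 2 (-0.03), and that of Ier2 without inhibitor animal 1 (-0.03).

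The other 6 of the named activation genes were too low for the filter. Egr1 stood at 13.7, 6.88, 0 and 16.5 CPM, the RNA-binding protein Zfp36 at 41.1, 34.4, 27.7 and 33 and the stress factor Atf3 at 27.4, 20.6, 13.9 and 8.26. The heat-shock protein Hspa1a was at 109.7, 20.6, 27.7 and 33, the cytokine-signalling inhibitor Socs3 at 27.4, 0, 0 and 16.5 and the clock repressor Nr1d1 at 82.3, 82.6, 55.5 and 90.8. Atf3 and Zfp36 had both values without inhibitors above both with them, and the groups overlapped for the other 4 of these genes.

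**Figure D5:**
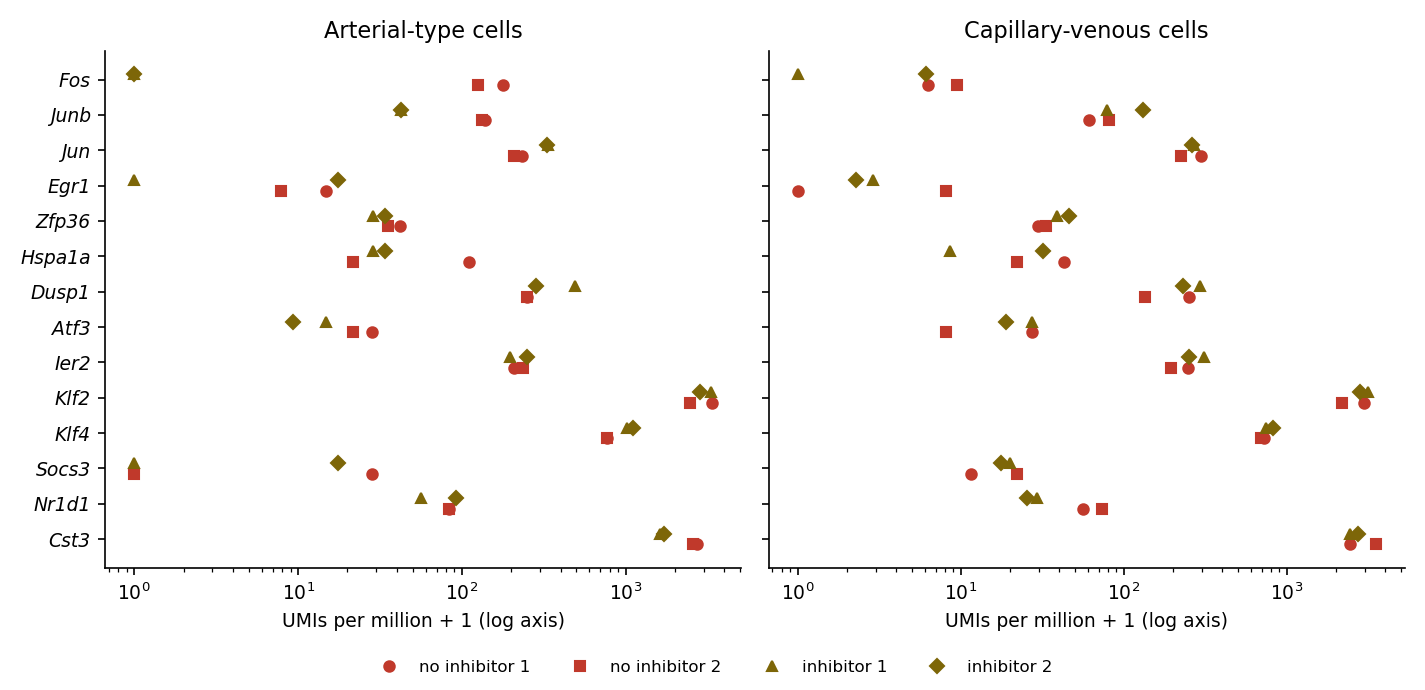
Levels of 13 activation genes and of Cst3 in arterial-type (left) and capillary-venous cells (right), in CPM plus 1 on a log axis, with 1 symbol per animal, red without and olive with inhibitors. In arterial-type cells both values without inhibitors lie above both with them for Fos, Junb, Zfp36, Atf3 and Cst3 and below them for Jun, Dusp1 and Klf4. Zfp36 and Atf3 were too low to be tested, and of the others only Cst3 passed the test. The order alone is a description.

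Of the 25 activation genes that the study took from sorted microglia of other animals, 11 were tested in arterial-type cells and the others were too low for the filter. None was called, where 1 of all 1835 genes tested was (0.0545%), so a count of 0 does not set this or any other short list apart. Of the 11, 6 had a positive difference and 3 had an unadjusted p under 0.05. Their median log2 difference was 0.01, against 0.02 over all genes tested. In capillary-venous cells 14 were tested, 3 were positive and the median was -0.20. Counted per cell after thinning to 1000 UMIs, the list gave means of 7.04, 5.02, 7.06 and 5.92 UMIs in arterial-type cells and 5.70, 4.75, 5.74 and 5.69 in capillary-venous cells. Microglia-gated cells of the same libraries gave 11.4, 7.78, 2.59 and 2.13, so the animals were ordered by inhibitor in microglia and not in arterial-type cells. A list of 19 genes picked by the study from the same 4 libraries, and so no independent evidence, had 6 genes tested and 0 called, with a median of -0.13. None of the 17 immediate-early genes tested was called by edgeR (4 had an unadjusted p under 0.05, median 0.11).

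The arterial programme itself was also compared between the groups. Of 20 genes of the arterial list tested for the inhibitor difference, 0 were called by edgeR, where 1 of all 1835 genes tested was (0.0545%). Of the 20, 3 had an unadjusted p under 0.05, and the median log2 difference was -0.05. Bmx, Stmn2 and Egfl8 differed by -0.11, -0.01 and -0.01, and Sox17 by 0.20 (adjusted p = 0.993, 1, 1 and 0.894). For 5287 genes the inhibitor difference in arterial-type cells was compared with that in capillary-venous cells, and 1 gene passed (0.0189%), while 234 had an unadjusted p under 0.05. It was Mgp, for which the no-inhibitor minus inhibitor difference was -1.92 on the log2 scale relative to that in capillary-venous cells (edgeR adjusted p = 0.0482), and the call was lost without no-inhibitor animal 2 (0.955), without inhibitor animal 1 (0.0582), with RLE size factors (0.0530), with a fit that was not robust (0.0605), with the stricter gate (0.997) and without haemoglobin-rich barcodes (0.102), and in thinned cells the value was 0.78 (0.998).

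With 2 animals per group the inhibitor comparison tests only differences that exceed the spread between these animals, and the 20 cells of inhibitor animal 1 and 28 of no-inhibitor animal 1 gave the shallowest sums. Median mitochondrial shares of the arterial-type cells stood at 5.81%, 6.34%, 3.90% and 4.87% (6.07 ± 0.372% against 4.38 ± 0.686%, exact two-sided permutation p = 0.333), and their part in the inhibitor results was not tested.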

How the data were processed

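Single-cell 3′ RNA libraries of 4 whole brains were made and counted by the authors with Cell Ranger 3.0.0 on an mm10 reference, and the deposited files hold raw UMI counts per gene and barcode, not normalized, as a filtered matrix for each animal (31053 genes). The submitters' processing notes also name bcl2fastq and Seurat. Counts of genes with near-identical copies are uncertain.

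Cells were chosen from the counts by the gates given in the report, and their UMIs were summed per animal. Sums were tested with edgeR 4.0.16 (filterByExpr, TMM, robust quasi-likelihood fit, Benjamini-Hochberg adjustment) in R 4.3.3. A gene was called at an adjusted p under 0.05 with an absolute log2 difference over 0.58. The arterial-type against capillary-venous fit had the animal as a block and left the 26 gate genes out, and the inhibitor fit had no covariate. DESeq2 1.42.0 was an alternative. CPM and log2 values were computed here. Shares of cells and group medians were compared by exact permutation over animals with scipy 1.17.1. Detection was also counted after thinning each cell to 1000 UMIs, which left out 8 arterial-type, 67 capillary-venous and 398 microglia-gated cells (microglia-gated: at least 3 of a set of microglial markers that includes P2ry12, Cx3cr1, Fcrls and Siglech, and at most 1 endothelial gate gene). Doublets were scored against simulated ones and left in, except in 1 alternative. The scripts were tested on simulated data.

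The genes named are the 12 highest and 12 lowest called genes with 1 direction in all 4 animals and a mean of at least 50 CPM in the higher cell type, a fixed set of vascular and activation genes, all genes called in the inhibitor comparison or the interaction, and up to 4 called members of each list with its most abundant member. Tm4sf1, Crip1, Clu, Cd34, Ltbp4, Sparcl1, Hes1, Slc3a2, Abcg2, Slc6a6, Il6st and Ier3 were named after their values were seen. 1 of the 12 lowest genes is not reported here. The members and the lists were chosen with earlier results of these data known. Alternatives were DESeq2, RLE size factors, a non-robust fit, no filter, a stricter gate, Edn1 left out of the gate, doublet-scored barcodes left out, a mitochondrial limit of 10%, thinning, all other endothelial-gated cells as the comparison, the replicate number as a block, each animal left out, and, chosen after seeing the data, barcodes with at least 5% erythrocyte UMIs left out.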

Additional observations from a re-analysis of the deposited data

Results flagged for a closer look

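The 1 result that met a rule for a closer look was Mgp, because its inhibitor difference was not the same in the 2 endothelial groups. The difference without minus with inhibitors, in arterial-type relative to capillary-venous cells, was -1.92 on the log2 scale (edgeR adjusted p = 0.0482). Mgp stood at 137, 1280, 569 and 644 CPM in arterial-type and at 13.2, 175, 11.4 and 27.1 CPM in capillary-venous cells, so that no-inhibitor animal 2 was the highest in both. Without that animal the value was -1.47 with an adjusted p of 0.955, and the adjusted p was 0.0582 without inhibitor animal 1, 0.0530 with RLE size factors, 0.0605 with a fit that was not robust, 0.102 without haemoglobin-rich barcodes and 0.997 with the stricter gate, while thinned cells gave 0.78 (0.998). The 2 animals without inhibitors were far apart from each other for Mgp.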

How the results depend on the processing

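The counts of genes higher and lower in arterial-type than in capillary-venous cells were 96 and 37 by DESeq2, 106 and 57 with the stricter gate and 21 and 14 in thinned cells, where fewer counts were left. Without a filter 258 genes were lower. Leaving out 1 animal gave 145 to 188 higher and 83 to 122 lower. The genes higher without inhibitors in arterial-type cells, 1 as reported, were 4 without a filter, 0 with Edn1 out of the gate or the stricter gate, 3 without doublet-scored barcodes, 2 in thinned cells and 2 to 8 without 1 animal. The genes lower without inhibitors in arterial-type cells, 0 as reported, were 1 without a filter, without doublet-scored barcodes or at the 10% limit, and 0 to 3 without 1 animal. The genes whose inhibitor difference differs between arterial-type and capillary-venous cells, 1 as reported, were 0 with RLE factors, the stricter gate, thinning or haemoglobin-rich barcodes left out, 4 without a filter, 2 with Edn1 out of the gate or without doublet-scored barcodes, 3 at the 10% limit and 2 to 10 without 1 animal. The difference in share was 0.487 points with Edn1 out, 2.69 with the stricter gate, 1.13 at the 10% limit, 0.470 thinned and 1.73 to 2.41 without 1 animal. The consensus median was -0.16 with Edn1 out, -0.37 with the stricter gate, -0.0730 at the 10% limit, 0.34 thinned, where 1 gene was tested, and -0.193 to -0.00867 without 1 animal. The cause of these shifts was not tested.

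With the replicate number as a block, 0 genes were higher without inhibitors and the log2 difference of Cst3 had an adjusted p of 0.632. Same-numbered sums of the 2 groups correlated in their deviations at -0.0785. With 2 animals per group this is a single value, and it cannot show whether the numbers pair the animals.

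Signs changed for uncalled genes. In the inhibitor comparison Klf2 was -0.0836 with Edn1 out, -0.0440 with the stricter gate and -0.19 to 0.29 without 1 animal, and Ier2 was -0.14 with the stricter gate and -0.0291 to 0.36 without 1 animal. Between cell groups Klf2 was -0.0765 without a filter, Mfsd2a 0.11 with the stricter gate, Dusp1 -0.15 thinned, Sema3c 0.00923 thinned, Hspa8 0.0356 with the stricter gate, Apod 0.17 thinned and Hbb-bs 0.0324 without the animal as a block. C1qb was 0.16 with the stricter gate, 0.0321 without doublet-scored barcodes and -0.78 to 0.0243 without 1 animal. Tsc22d1 was -0.15 without a filter, -0.0675 with Edn1 out, -0.0246 with the stricter gate, -0.0181 at the 10% limit, -0.0230 thinned and -0.0878 to 0.14 without 1 animal. Id1 was -0.13 without a filter, -0.0338 thinned and -0.0345 to 0.12 without 1 animal. The interaction of Mgp was 0.78 in thinned cells. Of 61 called genes named between the cell groups, 31 stayed called in every alternative that tested them and none changed sign. The inhibitor comparison tested 1835 genes in arterial-type and 7004 in capillary-venous sums.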

Other observations

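Among genes outside the naming rule, chosen after their values were seen, Tmem100 and Clu had the same order in both animals of a group in arterial-type cells. Tmem100, a membrane protein of the endothelial BMP response, stood at 27.4, 55.0, 194 and 239 CPM, with a log2 difference without minus with inhibitors of -2.12 (edgeR adjusted p = 0.178). It was called lower with no filter (0.0341), without no-inhibitor animal 2 (0.0269), without inhibitor animal 1 (0.0295), without doublet-scored barcodes (0.0167) and at the mitochondrial limit of 10% (0.0266). Clu stood at 302, 378, 153 and 157 CPM with a difference of 1.29 (adjusted p = 0.233). In capillary-venous cells Clu was the only gene called of 7004 tested, at 1.03 (adjusted p = 0.049), while 403 genes had an unadjusted p under 0.05. Their UMIs in arterial-type cells lay in 28 cells for Tmem100 and 46 for Clu.

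Clock-output genes numbered 7 tested between the 2 endothelial groups, 0 called and a median log2 difference of -0.25. Of the 4 tested genes of endothelial activation 1 was higher, where 4.56% of all genes tested were. It was Adamts1, a metalloproteinase, whose call was lost without inhibitor animal 1 (0.0623) and without inhibitor animal 2 (0.0908).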
